A study of Mus musculus with 9 samples.

Results

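The comparison described here sets macrophages that received the compound 6877002 against macrophages that received vehicle, both activated through the receptor CD40. It rests on 6 of the 9 arrays of the series, the 3 titled with 6877002 and the 3 titled as control, chosen by their titles alone. The cells were bone marrow-derived macrophages of C57Bl/6 mice, grown from marrow in RPMI with conditioned medium of L929 fibroblasts, the usual source of M-CSF for such cultures. Vehicle or 6877002 was added for 1 h, and the agonistic antibody FGK45, which binds and activates mouse CD40, was then present at 25 ug/ml for 8 h in both groups. Each array held total RNA of 1 numbered mouse, with mice numbered 1 to 3 in each group, and the labels do not say whether a number stands for the same animal in both groups. The other 3 arrays, of macrophages given the compound 6860766 in the same way, entered the estimate of the spread and a direct comparison of the compounds. No dose of either compound is given in the labels, and every group received the antibody, so the response to CD40 itself is not measured. Because all values come from whole cultures, fewer cells of a type and less RNA per cell cannot be told apart.

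Macrophages, dendritic cells and B cells carry CD40, which belongs to the TNF receptors and is triggered by CD40 ligand on activated T cells. It has no enzyme activity of its own and signals by recruiting TRAF adaptor proteins, of which TRAF6 binds its own site in the receptor tail and feeds the NF-kB and MAP kinase pathways. In macrophages this leads to cytokines, co-stimulatory molecules and proteases, and in atherosclerosis the CD40 to TRAF6 branch in myeloid cells is linked to plaque inflammation. 6877002 is one of the TRAF-STOP compounds, which were developed against that interaction.

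Expression was read on Illumina mouse bead arrays with 45281 probes, and each value below is the log2 value that the authors deposited after normalization between arrays. On the 6 arrays 15271 to 15846 probes (33.7% to 35%) had a detection p-value under 0.05, and the number of arrays limits the precision of every comparison. Pairs of the 6 arrays correlated at r = 0.993 to 0.996 across the 11406 features tested, which are not independent replicates. All 8 macrophage markers on the array were detected, with Adgre1, which encodes F4/80, at a log2 value of 13.40 to 13.53 under vehicle and 13.49 to 13.52 under 6877002. No T cell, fibroblast, mast cell, erythroid or dendritic cell marker was detected on 3 or more of the 6 arrays. All 4 neutrophil markers on the array were detected, and their mean log2 value was 7.86 to 7.99 under vehicle and 7.86 to 7.99 under 6877002, ranges that overlap. The macrophage markers' mean log2 value was 10.37 to 10.41 under vehicle and 10.45 to 10.54 under 6877002, without overlap, and Mertk and Fcgr1 among them rose. Of the B cell and NK cell markers, Cd79b and Prf1 were detected and did not pass the test. The groups were laid out unevenly over the 4 slides. 6877002 replicates 1 and 2 were on slide 3 and replicate 3 on slide 4, while vehicle replicates 1, 2 and 3 were on slides 1, 2 and 4. The first principal component of the 6 arrays held 38.4% of the variance and put the 6877002 arrays at 9.03 to 11.09, vehicle replicate 3 at -4.60 and vehicle replicates 1 and 2 at -12.62 and -13.94. The genes named with a value that passed the test but did not pass with slide as a block are therefore listed at the end of the paragraph that first gives them, each with its log2 change from the blocked fit in brackets.

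The response to 6877002 was of moderate size and leaned towards higher expression. Of 11406 features, 341 passed the test (2.99%; limma, Benjamini-Hochberg adjusted p under 0.05), 219 of them higher (1.92%) and 122 lower (1.07%). Rises were also the larger changes, with a median log2 change of 0.53 among the features that rose and -0.38 among those that fell. A log2 change over 1 was seen for 24 features that rose, and Csf2 was the one feature that fell by as much. Over all features the median log2 change was -0.0079, the quartiles were -0.11 and 0.11, and the 1st and 99th percentiles were -0.43 and 0.58. The arrays of the groups did not overlap for any of the 341 features, against 23.1% of all features. A gene symbol was available for 289 of them, 185 higher and 104 lower, and the other 52 are probes without one, which are counted and not named.

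Detection of a change depended on the level of the gene. Among the 1261 features with a mean log2 value under 5 on the 9 arrays, 0.238% passed, and the median standard error of the log2 change was 0.18. Between 10 and 11 the share was 6.32% of 934 features and the median standard error 0.07. A small change passed in a highly expressed gene such as Oasl2, an antiviral gene of the OAS family (log2 change 0.26 ± 0.07), while Fgl2, a fibrinogen-like protein of macrophages, missed the threshold with a larger change (0.66 ± 0.18, adjusted p = 0.0503 in limma). At the threshold itself, Hsd3b2 (0.31 ± 0.08) was the last feature to pass and Ly6e, an interferon-induced surface protein (0.28 ± 0.08), the first not to. Oasl2 (0.17) and Hsd3b2 (0.18) did not pass with slide as a block.

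**Figure D1:**
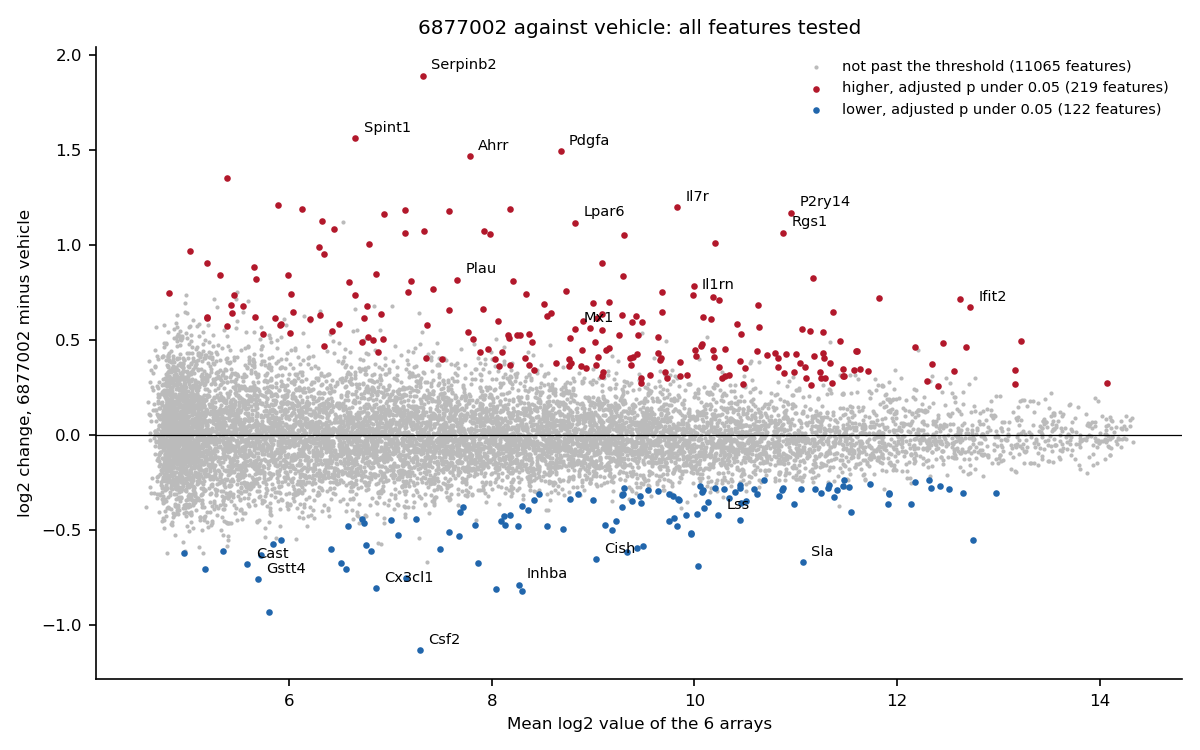
Mean log2 value over the 6 arrays (x axis) against the log2 change, 6877002 minus vehicle (y axis), for all 11406 features; red points rose and blue points fell at an adjusted p under 0.05, and grey points did not pass. The rises reach 1.89 (Serpinb2) and the falls -1.13 (Csf2), and features that passed with small changes lie at high levels.

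The largest named rises were those of Serpinb2, Spint1 and Pdgfa. Serpinb2, which encodes plasminogen activator inhibitor 2, had log2 values of 6.56, 6.54 and 6.02 on the vehicle arrays and 8.20, 8.64 and 7.95 on the 6877002 arrays. Its lowest 6877002 array was far above its highest vehicle array, and the rise was 3.7-fold (log2 change 1.89 ± 0.18, where ± gives the standard error, with 3 arrays in each group; adjusted p = 2.51e-06 in limma). Spint1, an inhibitor of the membrane serine proteases matriptase and hepsin, had log2 values of 5.95, 5.74 and 5.93 on the vehicle arrays and 7.44, 7.52 and 7.35 on the 6877002 arrays. Its level was low but detected on all 3 vehicle arrays, no 6877002 value came near the vehicle values, and the log2 change was 1.56 ± 0.16. Pdgfa, the A chain of platelet-derived growth factor, stood at 7.96, 7.75 and 8.08 on the vehicle arrays and 9.45, 9.52 and 9.31 on the 6877002 arrays on the log2 scale. The spread within each group was small beside the distance between them, a log2 change of 1.49 ± 0.09 (adjusted p = 1.58e-08 in limma, shared with P2ry14 as the lowest of all features).

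Receptors for nucleotides and for a lipid were among the 20 largest named rises. P2ry14, a receptor for UDP-sugars, had log2 values of 10.26, 10.42 and 10.42 on the vehicle arrays and 11.61, 11.53 and 11.46 on the 6877002 arrays, and its neighbour P2ry13, a receptor for ADP, 7.31, 7.59 and 7.86 on the vehicle arrays and 8.84, 8.69 and 8.78 on the 6877002 arrays. Both separated the groups fully, with log2 changes of 1.17 ± 0.07 and 1.19 ± 0.12. P2rx5, an ATP-gated channel, rose by 0.99 ± 0.17 on the log2 scale. That made 3 rises and 0 falls among the 10 P2X and P2Y receptors tested, against 1.92% higher over all features. The median log2 change of the 10 was 0.13. Lpar6, a receptor for lysophosphatidic acid, rose from 8.22, 8.16 and 8.41 to 9.30, 9.40 and 9.43 (log2 values; change 1.12 ± 0.09). Rgs1, which speeds the shut-off of G protein alpha subunits, stood at 10.23, 10.48 and 10.32 on the vehicle arrays and 11.44, 11.33 and 11.46 on the 6877002 arrays on the log2 scale, and Gnb4, a G protein beta subunit, had a log2 change of 0.95 ± 0.13. The orphan receptors Gpr141 (0.81 ± 0.13) and Gprc5b (0.69 ± 0.18) rose too, whereas Gpr84, a receptor for medium-chain fatty acids (-0.31 ± 0.06), and Gpr18 (-0.43 ± 0.09) fell, all as log2 changes. Among 30 orphan and adhesion receptors tested these 4 were the ones that passed, against 2.99% of all features. Rgs1 was the 1 rise among 8 regulators of G protein signalling, against 1.92% higher over all features, and none of the 5 chemokine receptors tested passed. Gpr18 (-0.40) did not pass with slide as a block.

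Mxd1, Ifrd1 and Cd28 were also among the rises over 1 log2 unit. Mxd1, which competes with MYC for its partner MAX, had log2 values of 7.22, 7.51 and 7.44 on the vehicle arrays and 8.45, 8.60 and 8.33 on the 6877002 arrays, a log2 change of 1.07 ± 0.11. Ifrd1, a transcriptional co-regulator, rose by 1.08 ± 0.18 on the log2 scale. Cd28, known as the co-stimulatory receptor of T cells, was detected on these arrays at log2 values of 6.78, 6.68 and 6.37 on the vehicle arrays and 7.77, 7.60 and 7.65 on the 6877002 arrays while no T cell marker was detected, and its log2 change was 1.06 ± 0.12. Lyzl4, a lysozyme-like protein (1.19 ± 0.14), Insl6, a relaxin-family peptide (1.01 ± 0.08), and Gm4951, an interferon-inducible GTPase (1.06 ± 0.13), completed the rises over 1 log2 unit that carry a symbol, together with Ahrr, Il7r and Il15ra, described below. For 3 genes that rose, the vehicle arrays were all below detection and the 6877002 arrays all above it, so that the change has only a lower bound, set by the dimmest detected probes of each array. Those were Acpp, an acid phosphatase that also releases adenosine from AMP (at least 1.66-fold higher), Asb2, a substrate adaptor of a ubiquitin ligase (at least 1.51-fold), and Il21r, the IL-21 receptor (at least 1.21-fold). None of these 3 would have met the detection filter without the 6877002 arrays, so each could only be higher there. Gm20747, a predicted gene of the Y chromosome, was the one named gene with the opposite pattern (at least 1.29-fold lower). It met the filter only through the vehicle arrays and could only be lower with 6877002. Asb2 (0.89), Il21r (0.62) and Gm20747 (-0.59) did not pass with slide as a block.

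**Figure D2:**
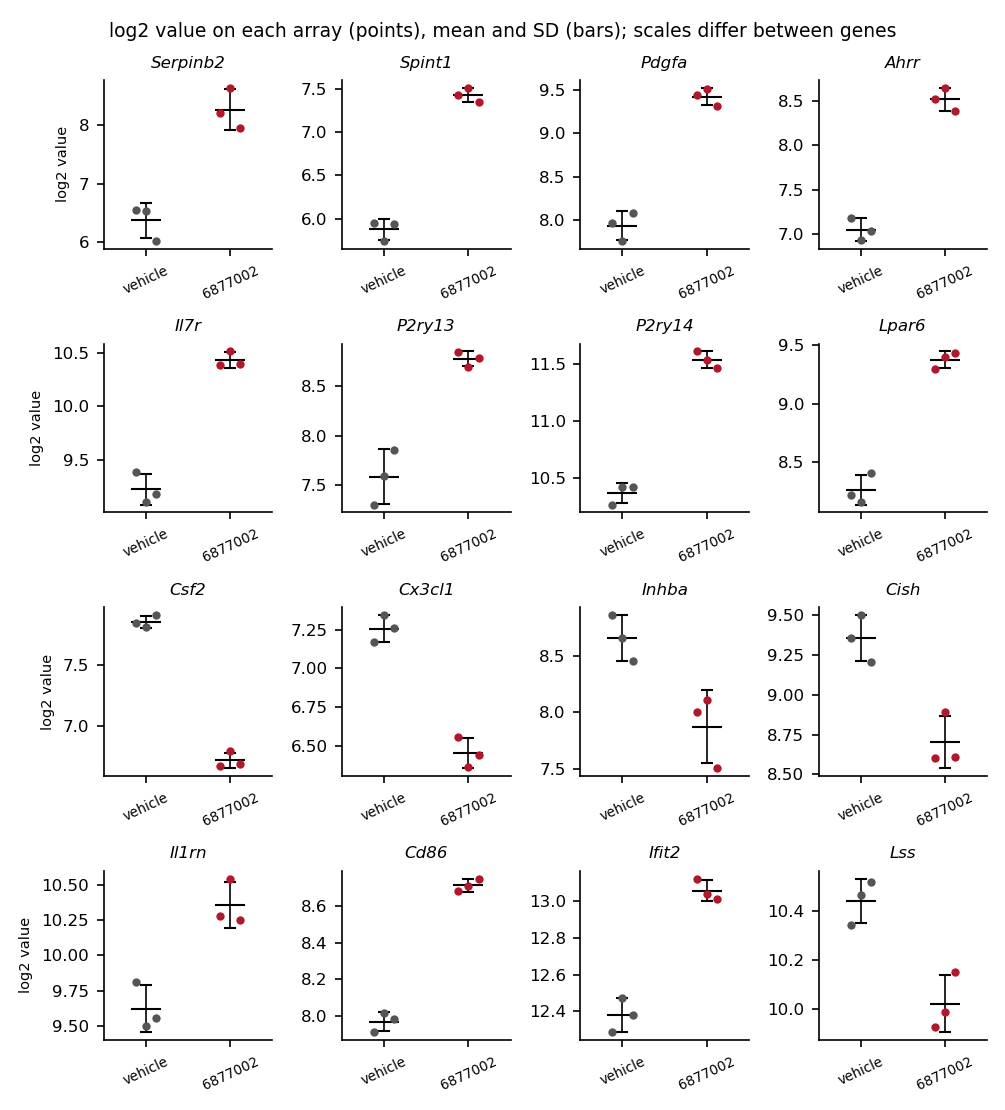
Deposited log2 value (y axis, a separate scale for each gene) of 16 genes on the 3 vehicle arrays (grey) and the 3 arrays with 6877002 (red); points are arrays in the order of their replicate numbers, and bars give the mean and SD of 3. The groups do not overlap for any of the 16, with Serpinb2, Spint1, Pdgfa and Ahrr the furthest apart upwards and Csf2 downwards.

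The largest named falls were those of Csf2, Cx3cl1 and Inhba. Csf2, the gene of GM-CSF, which drives myeloid growth and activation, had log2 values of 7.84, 7.81 and 7.91 on the vehicle arrays and 6.68, 6.80 and 6.69 on the 6877002 arrays. The vehicle arrays lay close together and well above the highest 6877002 array, and the log2 change was -1.13 ± 0.12 (adjusted p = 9.89e-06 in limma). Cx3cl1, a chemokine tethered to the membrane, stood at 7.17, 7.35 and 7.26 on the vehicle arrays and 6.56, 6.36 and 6.44 on the 6877002 arrays on the log2 scale, a change of -0.81 ± 0.12. Inhba, whose product forms activin A, had log2 values of 8.86, 8.66 and 8.45 on the vehicle arrays and 8.00, 8.11 and 7.50 on the 6877002 arrays. 6877002 replicate 3 was its lowest array, and the log2 change was -0.79 ± 0.13. Cish, which is among the 20 largest, is a feedback inhibitor induced through STAT5, the factor that GM-CSF receptors activate, and stood at 9.36, 9.50 and 9.21 on the vehicle arrays and 8.60, 8.89 and 8.61 on the 6877002 arrays, a log2 change of -0.66 ± 0.11.

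Other genes among the 20 largest named falls were Gstt4, a theta-class glutathione transferase (-0.76 ± 0.16), Tsc22d1, a leucine zipper protein (-0.75 ± 0.13), Il20rb, a receptor chain for IL-20 family cytokines (-0.71 ± 0.16), Pdxp, a phosphatase of pyridoxal phosphate (-0.70 ± 0.17), Cast, the calpain inhibitor calpastatin (-0.68 ± 0.14), and Lix1 (-0.67 ± 0.17), all as log2 changes. Enzymes and adaptors in this set included Kdm4a, a histone demethylase (-0.67 ± 0.11), Sla, an adaptor that dampens receptor signalling (-0.67 ± 0.07), Errfi1, an inhibitor of EGF receptors (-0.60 ± 0.11), and Nox1, an NADPH oxidase subunit (-0.61 ± 0.16). Gja1, the gap junction protein connexin 43 (-0.62 ± 0.08), and Adamts4, a protease that cleaves aggrecan (-0.60 ± 0.15), were lower by similar log2 changes. Apart from Csf2, no named gene fell by more than 1 log2 unit. Il20rb (-0.51), Pdxp (-0.52), Cast (-0.62), Errfi1 (-0.48), Nox1 (-0.66) and Adamts4 (-0.49) did not pass with slide as a block.

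Components of the CD40 pathway itself did not pass the test. Of 28 genes for CD40, TRAFs and their downstream kinases and ubiquitin enzymes, 0 rose and 0 fell, with a median log2 change of -0.05. Over all features 2.99% passed, so a list of this size can hold 0 calls without differing from the rest. Cd40 had log2 values of 13.21, 13.35 and 13.25 on the vehicle arrays and 13.07, 13.05 and 13.09 on the 6877002 arrays, a log2 change of -0.20 ± 0.06 with a 95% confidence interval of -0.33 to -0.07 (adjusted p = 0.0971 in limma). All 3 vehicle values were above the 3 values with 6877002, which is also true of 11.9% of all features in that direction. Traf6 stood at 9.30, 9.32 and 9.33 on the vehicle arrays and 9.30, 9.18 and 9.28 on the 6877002 arrays on the log2 scale, with overlapping groups and an interval for the log2 change of -0.22 to 0.09. Traf1 (0.01 ± 0.08) and Traf5 (-0.05 ± 0.15) did not pass either. The nearest of the list was Birc3, a ubiquitin ligase bound to TRAF2 (0.68 ± 0.19, adjusted p = 0.057 in limma), named here after its value was seen. Among the 10 NF-kB subunits and inhibitors 0 rose and 0 fell, which the share of 2.99% over all features also allows. Their log2 changes ran from -0.23 to 0.13.

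Interferon-stimulated genes were the list with the most rises. These genes carry response elements for interferon regulatory factors and STATs in their promoters and encode antiviral effectors, and macrophages activate them through autocrine interferon. Rises passed the test for 16 of the 46 tested and falls for 0, where 1.92% of all features rose, while 45 had a positive log2 change and the median was 0.28, against -0.0079 over all features. The list counted 9 to 13 rises when any 1 of the 6 arrays was left out and 11 with slide as a block, with a median log2 change of 0.18 in the latter. The count was 9 on omitting vehicle replicate 1 or 6877002 replicate 1. Ifit2, which binds viral RNA, had log2 values of 12.29, 12.47 and 12.38 on the vehicle arrays and 13.12, 13.04 and 13.01 on the 6877002 arrays. That is among the highest levels on the array, and the groups stand well apart (log2 change 0.67 ± 0.08, adjusted p = 5.29e-05 in limma). Oasl1, which restrains translation of Irf7 in the mouse, rose by 0.75 ± 0.11 on the log2 scale, Cmpk2, a mitochondrial nucleotide kinase, by 0.72 ± 0.10, and Isg20, an exonuclease, by 0.66 ± 0.10. The dynamin-like proteins Mx1 (0.56 ± 0.11) and Mx2 (0.53 ± 0.09) and Zbp1, a sensor of Z-form nucleic acid (0.53 ± 0.14), were of similar size. Among transcription factors of the pathway, Irf1 (0.49 ± 0.07), Irf7 (0.41 ± 0.08), Irf8 (0.37 ± 0.10) and Batf2 (0.36 ± 0.08) rose, and Il15, a cytokine that interferon induces, rose by 0.40 ± 0.08, all as log2 changes. The other 7 interferon regulatory factors tested did not pass. Zbp1 (0.15), Irf7 (0.23), Irf8 (0.23) and Batf2 (0.34) did not pass with slide as a block.

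Of 14 IFIT and IFI genes tested 7 rose and 0 fell, against 1.92% higher over all features, with a median log2 change of 0.49. They include Ifit1bl1 (0.77 ± 0.13) and the PYHIN proteins Ifi214 (0.66 ± 0.14) and Ifi213 (0.56 ± 0.09). With slide as a block 5 rose, with a median of 0.25. The promoters of Ifit3 and Rsad2, both interferon-stimulated genes, are shown because both hold the interferon-stimulated response element, searched on both strands as GAAA repeated after any 2 bases, within the 300 bases that RefSeq's GRCm38.p6 annotation places around the gene's start, 250 before and 50 after. Capitals mark the matches, 2 in Ifit3 (chr19:34583279-34583578, plus strand) and 1 in Rsad2 (chr12:26456403-26456702, minus strand), and 3.44% of all such promoter windows, or 4.03% of those of the tested genes that could be matched, hold one.
Ifit3: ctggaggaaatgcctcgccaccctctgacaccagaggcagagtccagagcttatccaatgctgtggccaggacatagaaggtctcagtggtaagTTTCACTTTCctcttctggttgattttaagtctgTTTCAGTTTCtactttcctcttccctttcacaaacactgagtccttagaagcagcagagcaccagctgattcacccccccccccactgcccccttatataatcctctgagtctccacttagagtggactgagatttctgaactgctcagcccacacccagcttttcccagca
Rsad2: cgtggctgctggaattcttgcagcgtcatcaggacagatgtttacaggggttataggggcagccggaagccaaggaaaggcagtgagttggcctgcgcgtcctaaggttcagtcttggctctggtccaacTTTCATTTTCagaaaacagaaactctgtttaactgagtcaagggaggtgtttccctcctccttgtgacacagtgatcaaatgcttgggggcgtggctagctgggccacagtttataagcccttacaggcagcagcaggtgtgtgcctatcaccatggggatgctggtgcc
Ifit3, a partner of Ifit1, rose from log2 values of 12.12, 12.33 and 12.19 to 12.79, 12.56 and 12.74, and Rsad2, the antiviral enzyme viperin, from 13.92, 14.00 and 13.89 to 14.24, 14.17 and 14.20. The groups did not overlap in either, and the log2 changes were 0.49 ± 0.08 and 0.27 ± 0.06. A match is a description of the letters and no test of binding. Ifi214 (0.41) did not pass with slide as a block.

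Antigen presentation through MHC class II rose in part. Ciita, the transactivator of class II genes, had log2 values of 5.77, 5.38 and 5.56 on the vehicle arrays and 6.57, 6.14 and 6.52 on the 6877002 arrays (log2 change 0.84 ± 0.16). The class II chain H2-Aa rose by 0.69 ± 0.10 on the log2 scale, the invariant chain Cd74 by 0.43 ± 0.08 and cathepsin S, Ctss, which trims that chain, by 0.57 ± 0.14. These were the 4 rises among 12 class II genes tested, against 1.92% higher over all features, with 0 falls, a median log2 change of 0.30 and 11 positive values. The list held 3 to 5 rises without any 1 of the 6 arrays and 5 with slide as a block. None of the 18 class I presentation genes passed in either direction, where 2.99% of all features passed, and their median log2 change was 0.11. Among 16 co-stimulatory and checkpoint molecules 4 rose and 0 fell, against 1.92% higher over all features, with a median log2 change of 0.02. The ligand Cd86 stood at 7.91, 8.01 and 7.98 on the vehicle arrays and 8.68, 8.71 and 8.75 on the 6877002 arrays on the log2 scale, a clear separation, and its log2 change was 0.74 ± 0.10. Its other detected probes gave values of the same sign. Cd200r1, an inhibitory receptor of myeloid cells, rose by 0.58 ± 0.13 and Cd274, the checkpoint ligand PD-L1, by 0.27 ± 0.07 on the log2 scale. Cd180, a Toll-like receptor relative, rose as well (0.71 ± 0.08). Of 50 surface molecules named by CD number 6 rose and 0 fell, against 1.92% higher over all features. That count is not separate, since Cd28, Cd86, Cd200r1 and Cd274 are in the co-stimulatory list too. Ctss (0.19), Cd200r1 (0.49) and Cd274 (0.26) did not pass with slide as a block.

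The aryl hydrocarbon receptor is a ligand-activated transcription factor that binds planar aromatic compounds, pairs with ARNT and switches on detoxifying enzymes together with its own repressor, Ahrr. Ahrr had log2 values of 7.18, 6.93 and 7.04 on the vehicle arrays and 8.52, 8.65 and 8.38 on the 6877002 arrays. All 3 values with 6877002 were more than 1 unit above the highest vehicle value, and the log2 change was 1.47 ± 0.11 (2.76-fold, adjusted p = 1.01e-07 in limma). Nqo1, a quinone reductase induced by this receptor and by NRF2, rose by 0.53 ± 0.13 on the log2 scale. With Serpinb2, that made 3 rises and 0 falls among the 5 tested members of a 10-gene list, against 1.92% higher over all features. The others tested were Arnt and Il1b. The gene Cyp1a1, the classical target, is not among the features tested. Of 21 NRF2 genes, Nqo1 rose, Gclm, a subunit of the enzyme that starts glutathione synthesis, fell (-0.35 ± 0.07), and the others did not pass. Over all features 1.92% rose and 1.07% fell. Glucuronosyltransferases of the Ugt1a cluster conjugate aromatic compounds and are also induced by the aryl hydrocarbon receptor. They were looked at after the values were seen, so their count is a description only. Of 4 tested 4 had risen, against 1.92% higher over all features. These were Ugt1a6a (0.61 ± 0.15), Ugt1a10 (0.44 ± 0.06), Ugt1a6b (0.44 ± 0.12) and Ugt1a7c (0.37 ± 0.08). Transcripts of this cluster share their last exons, so the probes may not tell them apart, and the other detected probes of Ugt1a6a did not pass. Nqo1 (0.58) and Ugt1a6b (0.46) did not pass with slide as a block.

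The promoters of Ahrr (chr13:74292282-74292581, minus strand) and P2ry13 (chr3:59210833-59211132, minus strand), genes among the largest rises, are shown because their 300-base windows hold the aryl hydrocarbon response element TNGCGTG on either strand, 1 and 3 times, as capitals mark. Of all promoter windows 5.07% hold it, and of those of the tested genes that could be matched 9.47%.
Ahrr: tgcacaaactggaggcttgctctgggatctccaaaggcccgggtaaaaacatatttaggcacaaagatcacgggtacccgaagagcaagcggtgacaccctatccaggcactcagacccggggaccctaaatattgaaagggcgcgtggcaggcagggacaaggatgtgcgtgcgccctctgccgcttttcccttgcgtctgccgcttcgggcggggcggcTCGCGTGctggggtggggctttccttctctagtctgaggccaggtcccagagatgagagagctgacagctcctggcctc
P2ry13: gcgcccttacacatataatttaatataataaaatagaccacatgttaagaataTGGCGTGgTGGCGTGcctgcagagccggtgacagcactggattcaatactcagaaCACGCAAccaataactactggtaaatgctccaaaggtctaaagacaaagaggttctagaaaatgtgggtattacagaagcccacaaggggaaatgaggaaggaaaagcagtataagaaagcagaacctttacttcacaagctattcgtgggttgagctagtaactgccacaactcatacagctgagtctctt
The windows are RefSeq's on GRCm38.p6 and the arrays do not measure binding there. Both genes were picked for their matches, P2ry13 is not on the list of receptor targets, and windows of the other rises are not shown for this element.

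Genes of the ATF4 response, through which cells answer amino acid shortage and endoplasmic reticulum stress, rose in part. Of 27 tested, 5 rose, against 1.92% higher over all features, and 0 fell, 22 were positive and the median log2 change was 0.18. The rises numbered 2 to 4 without any 1 of the 6 arrays and 3, with 1 fall, with slide as a block. The count was 2 on omitting vehicle replicate 2 or 6877002 replicate 1, 3 on omitting vehicle replicate 1 or vehicle replicate 3 or 6877002 replicate 2 and 2 with median scaling of the arrays. Chac1, which degrades glutathione, had log2 values of 8.62, 8.63 and 8.67 on the vehicle arrays and 9.58, 9.42 and 9.63 on the 6877002 arrays, with no overlap and a log2 change of 0.91 ± 0.09. Trib3, a pseudokinase that restrains ATF4, rose by 0.69 ± 0.09, asparagine synthetase, Asns, by 0.34 ± 0.07, the transcription factor Ddit3, also called CHOP, by 0.33 ± 0.08, and the tryptophanyl-tRNA synthetase Wars by 0.27 ± 0.07, all on the log2 scale. Wars is also an interferon-induced gene, and its other 3 detected probes gave log2 changes that did not pass. None of the 16 endoplasmic reticulum chaperones tested passed, where 2.99% of all features passed, and their median log2 change was -0.01. The Chac1 promoter (chr2:119350992-119351291, plus strand) is shown for its match to the ATF4 element TGATGNAA, in capitals, which 3.97% of all promoter windows, and 2.77% of those of the matched tested genes, hold on either strand.
Chac1: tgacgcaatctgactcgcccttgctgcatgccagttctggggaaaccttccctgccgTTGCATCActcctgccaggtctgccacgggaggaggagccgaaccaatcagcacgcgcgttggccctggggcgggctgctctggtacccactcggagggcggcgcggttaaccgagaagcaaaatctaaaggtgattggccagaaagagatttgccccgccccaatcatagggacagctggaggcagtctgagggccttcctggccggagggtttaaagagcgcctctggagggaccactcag
The window has 1 match. Among other genes that passed, the element also lies in windows of Asns and Trib3, which rose, and of Gtpbp4 and Il20rb, which fell. Asns (0.25), Ddit3 (0.31) and Wars (0.24) did not pass with slide as a block.

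Cytokines and inflammatory mediators went both ways. Of 26 tested, 4 rose and 4 fell, against 1.92% higher and 1.07% lower over all features, and the median log2 change was 0.0023. Besides Pdgfa and Il15, the rises were those of Il1rn, the natural antagonist of IL-1, with log2 values of 9.81, 9.50 and 9.56 on the vehicle arrays and 10.28, 10.54 and 10.25 on the 6877002 arrays, and of Nos2, the inducible nitric oxide synthase (0.80 ± 0.14). The falls were those of Csf2, Inhba, Il1a, an IL-1 receptor ligand released by damaged cells (-0.55 ± 0.09), and Osm, oncostatin M, which was named after its value was seen (-0.27 ± 0.07). The agonist Il1a thus had a negative and the antagonist Il1rn a positive log2 change. Of 19 chemokines, 2 fell and 0 rose, against 1.07% lower over all features. The falls were those of Cx3cl1 and Ccl17, a ligand of CCR4 (-0.60 ± 0.12), which are neighbours on chromosome 8. Tnfsf10, the death ligand TRAIL, was the TNF family ligand that rose (0.58 ± 0.15). Osm (-0.22) and Tnfsf10 (0.55) did not pass with slide as a block.

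Receptor chains for cytokines and growth factors were among the rises. Il7r, a chain of the receptors for IL-7 and TSLP, had log2 values of 9.39, 9.11 and 9.19 on the vehicle arrays and 10.38, 10.51 and 10.39 on the 6877002 arrays, a 2.3-fold rise without overlap (adjusted p = 5.6e-08 in limma). Il15ra, which presents IL-15 to neighbouring cells, rose by 1.00 ± 0.13 on the log2 scale. With Il21r they were the 3 rises among 19 interleukin receptors, and Il20rb was the 1 fall, against 1.92% higher and 1.07% lower over all features. Il21r passed the detection filter through the 6877002 arrays alone and so had to be higher there. Csf2rb, the beta chain shared by the GM-CSF, IL-3 and IL-5 receptors (0.54 ± 0.11), and Csf2rb2, a beta chain of the IL-3 receptor (0.59 ± 0.09), rose while Csf2 fell, all as log2 changes. These beta chains are near-identical, so a probe may read both, and the other detected probes of Csf2rb did not pass. Csf1r, the M-CSF receptor, stood at 11.38, 11.46 and 11.38 on the vehicle arrays and 11.40, 11.37 and 11.39 on the 6877002 arrays on the log2 scale, without a call (-0.02 ± 0.07). In the list of the CSF receptors and the genes they induce, 4 of 18 rose and 2 fell, against 1.92% and 1.07% over all features. The rises also counted the cyclins Ccnd1 and Ccnd2, and the falls were Cish and Ccl17.

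Some genes of lipid synthesis fell. Of 18 cholesterol synthesis genes, 4 fell, against 1.07% lower over all features, and 0 rose, with 3 positive values and a median log2 change of -0.23. Lss, lanosterol synthase, stood at 10.34, 10.47 and 10.52 on the vehicle arrays and 9.93, 9.98 and 10.15 on the 6877002 arrays on the log2 scale, a change of -0.42 ± 0.08. Mvd, of the mevalonate branch (-0.42 ± 0.08), Hsd17b7, a sterol reductase (-0.36 ± 0.08), and Fdps, which makes farnesyl diphosphate (-0.30 ± 0.07), were the other falls. Without any 1 of the 6 arrays 1 to 4 fell, and with slide as a block 1 did (median log2 change -0.15). The count was 1 on omitting 6877002 replicate 2, 2 on omitting vehicle replicate 2 or vehicle replicate 3 or 6877002 replicate 1 and 2 with median scaling of the arrays. Among 14 fatty acid genes, Fads2, a desaturase (-0.58 ± 0.13), Scd1, stearoyl-CoA desaturase (-0.34 ± 0.08), and Acly, which makes cytosolic acetyl-CoA (-0.26 ± 0.07), fell, against 1.07% lower over all features, and 0 rose. These calls numbered 0 to 2 without 1 array and 0 with slide as a block. The count was 0 on omitting vehicle replicate 1 or vehicle replicate 2 or 6877002 replicate 1 or 6877002 replicate 3, 1 on omitting 6877002 replicate 2 and 1 with median scaling of the arrays. In the list of LXR, efflux and storage genes 3 of 20 rose and 0 fell, against 1.92% higher over all features. The rises were those of the lipid droplet coats Plin2 (0.61 ± 0.09) and Plin3 (0.30 ± 0.08) and of Nceh1, which hydrolyses cholesterol esters (0.38 ± 0.07), all as log2 changes. Mvd (-0.32), Hsd17b7 (-0.21), Fdps (-0.18), Fads2 (-0.35), Scd1 (-0.27), Acly (-0.23) and Plin3 (0.23) did not pass with slide as a block.

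Ribosome assembly factors and tRNA-modifying enzymes were among the falls. They were listed after the values had been seen, as a set of 132 genes put together by function, of which 108 were tested. Of these 13 fell and 0 rose, against 1.07% lower over all features, 21 had a positive log2 change, and the median was -0.16. Grwd1, a histone chaperone bound to pre-ribosomes, had log2 values of 7.06, 7.02 and 6.84 on the vehicle arrays and 6.51, 6.56 and 6.47 on the 6877002 arrays, with a log2 change of -0.46 ± 0.12. Prmt3, a methyltransferase of ribosomal protein S2, changed by -0.45 ± 0.07, Ppan, needed for the large subunit, by -0.42 ± 0.07, Rrp15 by -0.45 ± 0.09, Mettl1, which methylates tRNA, by -0.45 ± 0.11, and Mrm3, a methyltransferase of mitochondrial rRNA, by -0.63 ± 0.16, all on the log2 scale. The dimmest detected probe of Ppan and that of Mettl1 had a positive log2 change that did not pass. The number of falls was 3 to 9 without any 1 of the 6 arrays and 5 with slide as a block, and the median log2 change was -0.15 with the block. The count was 3 on omitting vehicle replicate 2 or 6877002 replicate 1 or 6877002 replicate 2, 4 on omitting vehicle replicate 1 and 3 with median scaling of the arrays. Among polyamine and MYC-linked enzymes, listed likewise after the values were seen, Srm, spermidine synthase (-0.38 ± 0.07), and Uck2, a uridine kinase (-0.52 ± 0.07), fell, and Smox, which oxidises spermine, rose (0.70 ± 0.08). The 58 cytosolic ribosomal proteins tested gave 0 rises and 0 falls, where 2.99% of all features passed, with a median log2 change of -0.03. Grwd1 (-0.37), Mettl1 (-0.28), Mrm3 (-0.29) and Srm (-0.32) did not pass with slide as a block.

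Growth regulators changed in both directions. Ccnd1, cyclin D1, had log2 values of 9.48, 9.14 and 9.43 on the vehicle arrays and 9.92, 10.14 and 9.93 on the 6877002 arrays (log2 change 0.65 ± 0.11), and Ccnd2 rose by 0.41 ± 0.08. They were the 2 rises among 34 cell cycle and replication genes, against 1.92% higher over all features, with 0 falls and a median log2 change of -0.07. Cdt1, which licenses replication origins, rose outside that list (0.62 ± 0.09). The stress proteins of the GADD45 family, listed after the values were seen, split, since Gadd45b (0.42 ± 0.07) and Gadd45g (0.48 ± 0.09) rose and Gadd45a (-0.53 ± 0.09) fell. Plk2, a p53-induced kinase (0.45 ± 0.08), Mcl1, a survival factor (0.34 ± 0.07), and Casp4, the receptor of cytosolic lipopolysaccharide (0.27 ± 0.07), were the 3 rises among 25 p53 and apoptosis genes, all as log2 changes. Fosl2, an AP-1 subunit (-0.47 ± 0.10), fell and Zfp36, which destabilises cytokine mRNAs (0.31 ± 0.06), rose among 22 immediate early genes. For these lists of 25 and 22 genes, the shares over all features were 1.92% higher and 1.07% lower. Ccnd2 (0.38), Mcl1 (0.27), Casp4 (0.27), Fosl2 (-0.38) and Zfp36 (0.28) did not pass with slide as a block.

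Receptors of phagocytosis and adhesion gave a few calls in each direction. The receptor kinases for apoptotic cells Axl (0.56 ± 0.08) and Mertk (0.50 ± 0.11) rose, and the high-affinity Fc receptor Fcgr1 rose (0.40 ± 0.10) while the inhibitory Fc receptor Fcgr2b fell (-0.36 ± 0.08). C-type lectins of the dectin-2 cluster, Clec4n (-0.28 ± 0.07) and Clec4a1 (-0.30 ± 0.07), fell and Clec2d, a ligand of an inhibitory receptor of NK cells (0.42 ± 0.06), rose among 15 genes with a Clec symbol, and Mgl2, a galactose-binding lectin (-0.55 ± 0.14), fell. Itgal, the alpha chain of LFA-1, changed by -0.48 ± 0.10 and Itgb5 by 0.40 ± 0.10, and the remaining 11 of 13 integrin chains did not pass. For the 15 Clec genes and the 13 integrin chains, the shares over all features were 1.92% higher and 1.07% lower. Proteases moved one at a time, with rises of Plau, urokinase (0.82 ± 0.10), and Mmp12, macrophage elastase (0.65 ± 0.11), and falls of Adamts4 and of cathepsin C, Ctsc (-0.36 ± 0.06), all as log2 changes. Mertk (0.54), Fcgr2b (-0.24), Clec4n (-0.22), Clec4a1 (-0.19), Mgl2 (-0.33), Itgb5 (0.24), Mmp12 (0.42) and Ctsc (-0.27) did not pass with slide as a block.

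Further families gave few calls or none, where 2.99% of all features passed. At that share a family of 15 to 79 genes can hold 0 calls, so such a count does not show that it did not respond. No feature passed among 24 MAP kinases, 42 proteasome subunits, 79 respiratory chain and ATP synthase subunits, 31 histones, 42 splicing factors, 21 ABC transporters and 15 TNF receptors, with medians from -0.08 to 0.03 on the log2 scale. Among 167 solute carriers, Slco4a1, an organic anion transporter (0.83 ± 0.11), and Slc30a1, a zinc exporter (0.60 ± 0.11), rose and Slc13a3, a carboxylate transporter (-0.48 ± 0.13), fell. Of 175 genes with a Zfp symbol 2 rose and 0 fell. Glycolysis and hypoxia genes had 1 fall, that of Pfkl, a phosphofructokinase (-0.29 ± 0.07), and 0 rises among 27, but 2 positive values and a median log2 change of -0.13, or -0.06 with slide as a block. The other detected probe of Pfkl, at a lower level, had a positive log2 change. Slc13a3 (-0.35) and Pfkl (-0.19) did not pass with slide as a block.

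**Figure D3:**
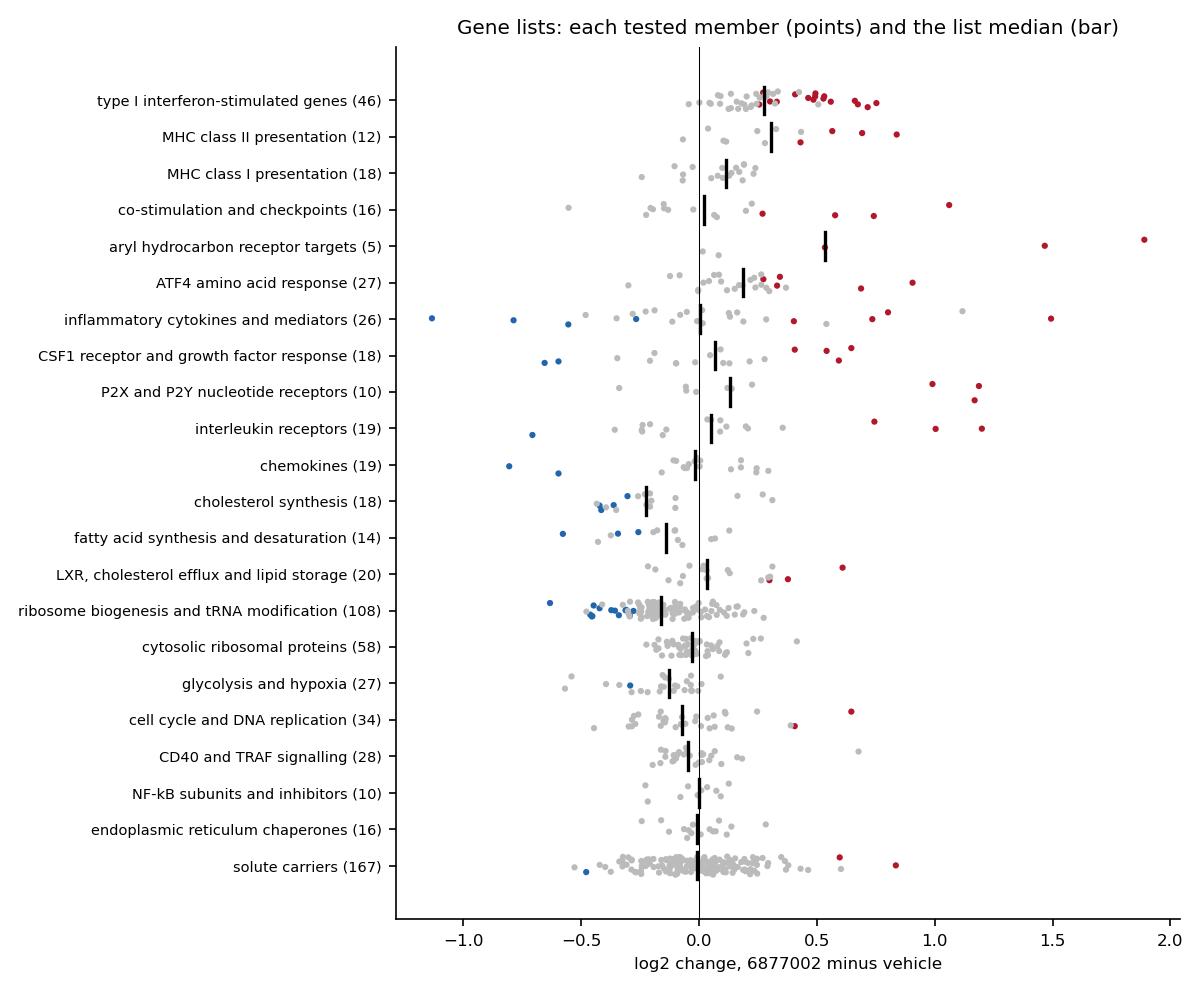
Log2 change, 6877002 minus vehicle (x axis), of each tested member of 22 gene lists or symbol families (rows, with the number tested); red points rose, blue points fell, grey points did not pass, and black bars are medians. The bars for interferon-stimulated genes (0.28), class II genes (0.30) and aryl hydrocarbon receptor targets (0.53) lie to the right, and those for cholesterol synthesis (-0.23) and ribosome biogenesis (-0.16) to the left.

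Genes that changed were in several cases neighbours on a chromosome. Ordered by position within RefSeq's annotation, 9044 pairs of adjacent tested genes could be formed, 52% with log2 changes of the same sign. In 26 pairs both genes passed, and 25 of these pairs changed in 1 direction. P2ry14 with P2ry13 on chromosome 3, Cx3cl1 with Ccl17 on chromosome 8, Ifit2, Ifit3 and Ifit1bl1 on chromosome 19, Mx1 with Mx2 on chromosome 16 and Rsad2 with Cmpk2 on chromosome 12 are gene families or known shared loci. Less related neighbours were Nceh1 with Tnfsf10, Plac8 (0.73 ± 0.17) with Coq2 of ubiquinone synthesis (0.37 ± 0.09), and Hipk2, a kinase (0.41 ± 0.09), with Tbxas1, thromboxane synthase (0.44 ± 0.08), whose log2 changes were all positive. Pairs such as Phf11a (0.72 ± 0.07) with Phf11d (0.42 ± 0.09), Pilra (-0.31 ± 0.07) with Pilrb1 (-0.34 ± 0.08) and Evi2 (0.49 ± 0.10) with Evi2a (0.33 ± 0.07) are close copies or overlapping genes, for which a probe may read both. The pair that moved apart was Mrm3, which fell, and Abr, which rose (0.31 ± 0.07). Coq2 (0.31), Hipk2 (0.23), Tbxas1 (0.34), Pilra (-0.29), Pilrb1 (-0.33), Evi2 (0.34) and Evi2a (0.21) did not pass with slide as a block.

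Where several detected probes stood for a gene, the brightest was used. Of the genes that passed, 114 had more than 1 detected probe, all probes shared a sign in 92, and in 38 at least 2 probes passed when every probe was tested on its own. In the other 22 a dimmer probe had the opposite sign, and Lss, Csf2rb, Pml, Zbp1, Ppan and Pfkl were among them. For Il7r and Il1rn the second brightest probe passed as well, with log2 changes of 1.08 and 0.94.

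The 6877002 arrays lay on slides 3 and 4 and only vehicle replicate 3 shared a slide with one of them. Within slide 4, 6877002 replicate 3 minus vehicle replicate 3, the difference had the same sign as the log2 change for all 341 features that passed. That was fixed in advance, because the arrays of the groups did not overlap for any of them, so it cannot tell of a slide effect. These arrays also entered the log2 change. The median difference was 0.43 within the slide against 0.53 for the features that rose, and -0.33 against -0.38 for those that fell. Serpinb2 differed by 1.93, Pdgfa by 1.23, Ahrr by 1.35 and Csf2 by -1.22 within the slide, and several interferon-stimulated genes by less than their full log2 change, such as Mx1 (0.28), Irf7 (0.22) and Zbp1 (0.28). With slide as a block in the model, 229 features passed, 171 of them among the 341. A total of 136 of the 341 passed whichever of the 9 arrays was left out, 100 higher and 36 lower, and 126 passed in all those fits and with slide as a block. This last set includes Serpinb2, Spint1, Pdgfa, Ahrr, Il7r, P2ry13, P2ry14, Lpar6, Mxd1, Cd86, Ciita and Chac1 among the rises and Csf2, Cx3cl1, Inhba, Cish, Ccl17, Il1a, Lss and Itgal among the falls. The part of the slides in the other calls was not tested.

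**Figure D4:**
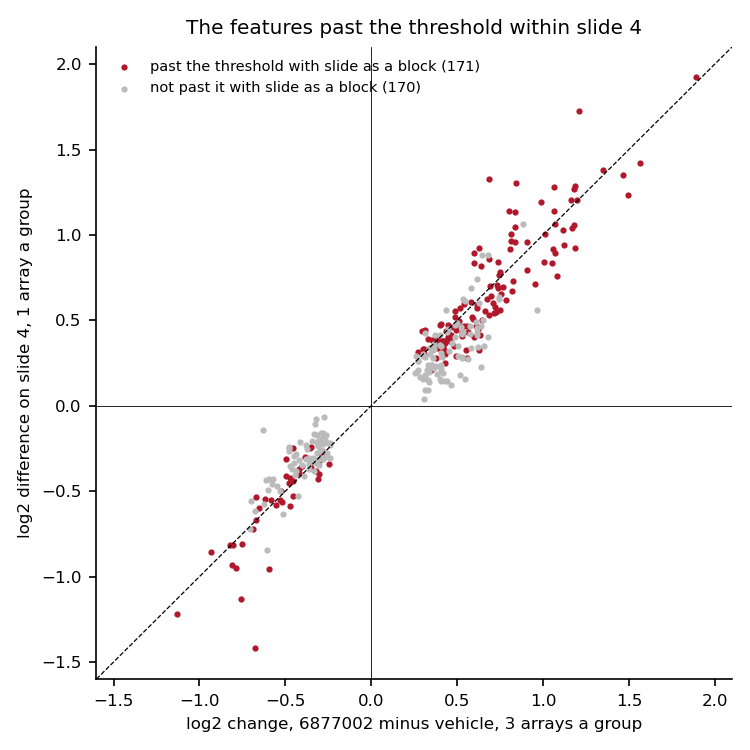
Each of the 341 features that passed, by its log2 change over 3 arrays a group (x axis) and by its log2 difference between the 6877002 and the vehicle array of slide 4 (y axis); the dashed line marks equal values. All points lie in the quadrants of equal sign, as they must because the groups do not overlap for any of these features. The 171 red points, which also passed with slide as a block, include those furthest from 0.

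The response to 6877002 was set against that to 6860766 by the direct contrast of the compounds, since both responses share the vehicle arrays. The times were the same and the doses are not given. 6860766 replicates 1 and 2 were on slide 1 and replicate 3 on slide 3, so this contrast is also uneven over the slides. Of 11406 features, 515 differed (4.52%; limma), 379 higher with 6877002 (3.32%) and 136 lower (1.19%). With slide as a block 460 differed, 360 of them among the 515. Serpinb2 was higher with 6877002 than with 6860766 by 2.42 ± 0.18 on the log2 scale. Its log2 change with 6860766 against vehicle, -0.53 ± 0.18, did not pass. P2ry13 (1.49 ± 0.12), Spint1 (1.41 ± 0.16), Ahrr (1.31 ± 0.11), P2ry14 (1.15 ± 0.07) and Lyzl4 (1.14 ± 0.14) were also higher with 6877002, and 6860766 gave log2 changes against vehicle of -0.31, 0.15, 0.16, 0.02 and 0.04 in that order. The inducible nitric oxide synthase Nos2 differed by 1.26 ± 0.14.

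Interferon-stimulated genes separated the compounds. Of the 46 tested, 40 were higher with 6877002 than with 6860766 and 0 lower, against 3.32% higher over all features. The median log2 difference was 0.65. This list count was not repeated with slide as a block, so the part of the slides in it was not tested. The changes against the vehicle arrays, which both compounds share, are given side by side for genes picked because their signs were opposite. They were those of Gm4951 (1.06 with 6877002, -0.56 with 6860766), Mx1 (0.56, -0.71), Ifi214 (0.66, -0.69), Isg20 (0.66, -0.53), Irf7 (0.41, -0.60), Fcgr1 (0.40, -0.55), Il15 (0.40, -0.52) and Ccnd2 (0.41, -0.52), all log2 changes. Hspa1a, an inducible heat shock protein, stood at 0.36 and -0.62 and was picked after its values were seen. No member of the ATF4 list passed in the contrast of the compounds, which does not show that they act alike. Chac1 changed by 0.91 ± 0.09 with 6877002 and 0.78 ± 0.09 with 6860766, a difference of 0.12 ± 0.09, and Plau by 0.82 ± 0.10 and 0.79 ± 0.10, a difference of 0.02 ± 0.10. Csf2 (-1.13 ± 0.12, -0.79 ± 0.12) and Cx3cl1 (-0.81 ± 0.12, -0.97 ± 0.12) had negative log2 changes with both, and the differences between the compounds, -0.34 ± 0.12 and 0.17 ± 0.12, did not pass. In the ribosome biogenesis list, put together after the values were seen, 12 of 108 were lower with 6877002 than with 6860766 and 0 higher. Over all features 1.19% were lower. The contrast uses the same 6877002 arrays as that against vehicle and is not a separate result. Of the 18 cholesterol synthesis genes 5 were higher with 6877002 than with 6860766, against 3.32% of all features, Lss by 0.34 ± 0.08 and Fdps by 0.40 ± 0.07. Hspa1a (0.29) did not pass with slide as a block.

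**Figure D5:**
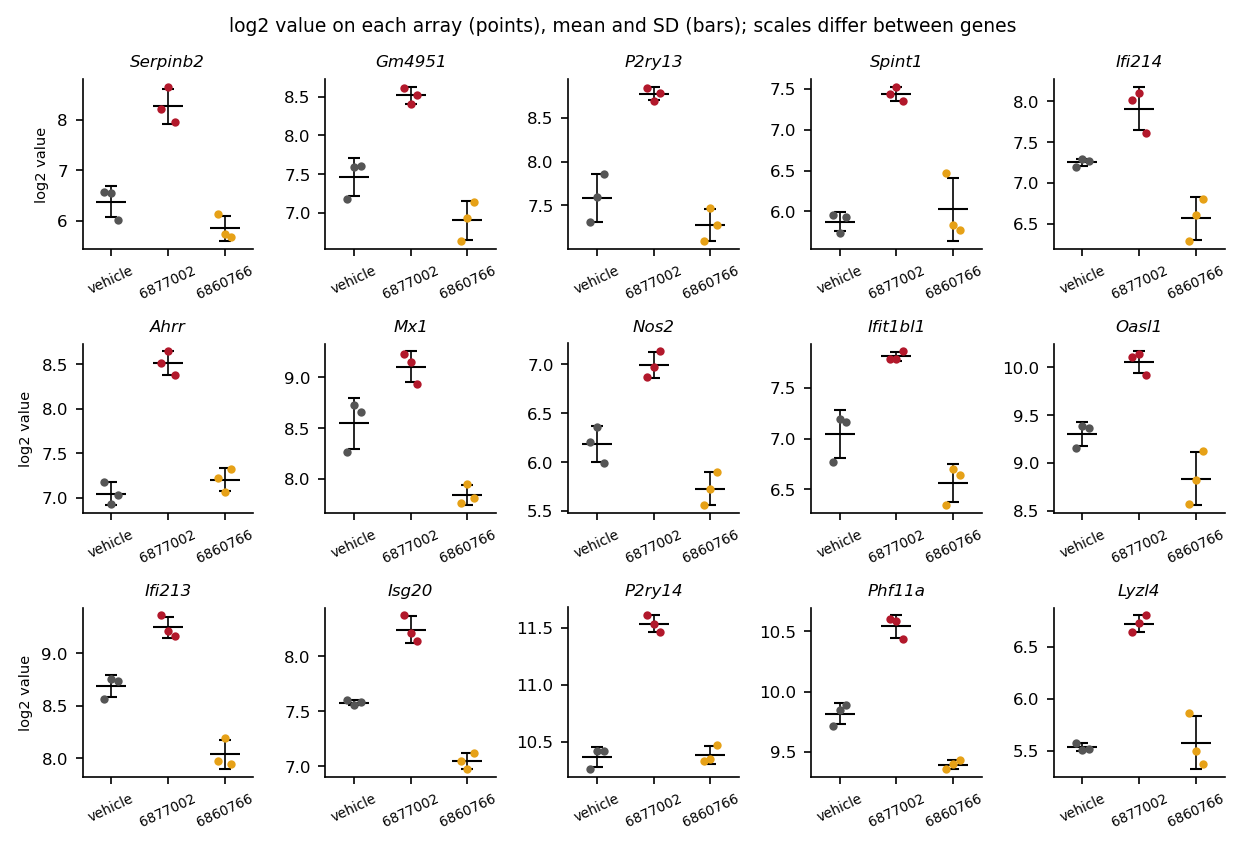
Deposited log2 value (y axis, a separate scale for each gene) of the 15 genes with the largest difference between the compounds among those past the threshold both against vehicle and between compounds, on the vehicle (grey), 6877002 (red) and 6860766 (yellow) arrays; bars give the mean and SD of 3 arrays. The 6877002 arrays lie above both other groups in all 15, which their choice by size of difference favours. The log2 difference from 6860766 is 1.14 (Lyzl4) to 2.42 (Serpinb2).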

How the data were processed

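The labels' protocols describe total RNA made into biotin-labelled cRNA and read on Illumina mouse bead arrays. Per the file headers, 1 deposited table holds the intensity of each probe, without background subtraction, and its detection p-value. The log2 values used here stand in a second deposited table and were normalized between arrays by the authors, with GenomeStudio 2011.1, R 3.1.3 and limma 3.22.7 named in the submitters' processing notes. A background correction with offset 16 and quantile normalization of the intensities gave the same values within 0.0161.

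Of 45281 probes, 16415 had a detection p-value under 0.05 on 3 or more of 9 arrays. The brightest probe stood for a gene with several (3439 genes), which left 11406 features, 9081 with a symbol. GEO's platform annotation listed 10378 probes without a symbol, 18 with several and 34885 with 1, of which 34807 matched RefSeq by gene identifier. All 9 arrays entered 1 fit in limma 3.58.1 (R 4.3.3; eBayes with trend, 6 residual degrees of freedom), tested on simulated data first. Contrasts were two-sided with Benjamini-Hochberg adjustment over all features, and errors are standard errors. An exact permutation of 3 arrays against 3 cannot go below p = 0.1. Replicates are numbered mice, and p-values measure the spread between their arrays.

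Comparison, gene lists and naming rule were chosen with earlier results of these data known, and 1 gene, Lpar6, was taken off the aryl hydrocarbon receptor list after its value was seen, as no established target, and the symbol patterns for interleukins and their receptors were corrected likewise. The rule named the 20 largest rises and falls, up to 6 called members of each list or family, called neighbours, genes detected in only 1 group, the 15 largest differences between compounds, TRAF genes, cell type markers and the features beside the threshold. Lists are described by counts and medians, with no set test.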

Additional observations from a re-analysis of the deposited data

Results flagged for a closer look

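The responses to the compounds differed for 515 features in the direct contrast of 6877002 with 6860766 (limma, adjusted p under 0.05), which drew attention to the genes that differed most. Among genes also changed by 6877002 against vehicle, the log2 differences were 2.42 for Serpinb2, 1.62 for Gm4951, 1.49 for P2ry13, 1.41 for Spint1 and 1.34 for Ifi214. They were 1.31 for Ahrr, 1.27 for Mx1, 1.26 for Nos2, 1.24 for Ifit1bl1 and 1.22 for Oasl1. The remaining ones were 1.21 for Ifi213, 1.19 for Isg20, 1.15 for P2ry14, 1.15 for Phf11a and 1.14 for Lyzl4. All 15 were higher with 6877002, on 3 of 3 arrays against 3. They were picked as the largest differences among genes that passed both comparisons, so this separation adds no further support.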

How the results depend on the processing

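The 341 features kept their sign under every alternative fit except with the mean of a gene's probes, where 339 did, and with the stricter detection filter, which tested 331 of them. The count of 6877002 against vehicle moved to 207 with median scaling (76.8% higher, against 64.2%; median of all features -0.01), 615 with 6 arrays in the fit, 625 with array weights, 195 with slide set as a block, 170 on slides 3 and 4 alone, where 1 vehicle and 1 6860766 array remain and are assumed to vary like the others, 145 without the trend and 51 when tested against a fold of 1.2. On slides 3 and 4 78.2% were higher. The count between the compounds moved to 307, 1132, 317 and 107 under median scaling, array weights, slides 3 and 4 alone and the 1.2-fold test. With slide as a fixed block the counts were 229 and 460. Leaving out 1 array or 1 mouse number gave 127 to 650 and 193 to 1094. The count against vehicle was 208 when vehicle replicate 1 was omitted, 198 for vehicle replicate 2, 172 and 186 for 6877002 replicates 1 and 2, and 650 for 6860766 replicate 3, which enters only the spread. Between the compounds it was 315 and 319 for 6877002 replicates 1 and 2, and 332 and 1059 for 6860766 replicates 2 and 3. Omitting mouse number 1, 2 or 3 gave 149, 127 and 382 against vehicle. With mouse number as replicate block the counts were 341 and 497, 306 of the former shared, and with the title number 380 and 514. Same-numbered vehicle and 6877002 mice correlated at 0.0327, -0.0244 and -0.00488 in their deviations. So few pairs, all on different slides, cannot show whether a number is the same animal. The numbers were not used to pair the arrays in the main fit. Pfkl turned to 0.055 with the mean of its probes. The cause of these shifts was not tested. Within slide 4 each group has 1 array and slide 3 holds no vehicle array, so neither gives a count. The list counts without an array or with the slide block were chosen after seeing the data.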

Other observations

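Further genes that passed the test belong to none of the groups described, and they were picked for their known functions after their values were seen. Among those higher with 6877002, Il4i1, a secreted amino acid oxidase, had log2 values of 11.53, 11.31 and 11.54 on the vehicle arrays and 12.20, 12.22 and 12.12 on the 6877002 arrays, a log2 change of 0.72 ± 0.08 without overlap. Pim3, a kinase that favours survival (0.78 ± 0.08), Sgk1, a kinase induced by glucocorticoids and serum (0.31 ± 0.06), Anxa1, a phospholipid-binding protein that limits inflammation (0.62 ± 0.12), Gsdme, which forms membrane pores in dying cells (0.60 ± 0.11), and F10, coagulation factor X (0.33 ± 0.07), also rose, as log2 changes. Tlr13, the mouse receptor for bacterial ribosomal RNA, rose by 0.30 ± 0.07. Anxa1 (0.30) did not pass with slide as a block.

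Among genes that fell, several encode signalling enzymes of leukocytes, such as Pik3cg, the gamma isoform of the PI3 kinase catalytic subunit, with log2 values of 9.41, 9.36 and 9.31 on the vehicle arrays and 8.83, 8.94 and 8.89 on the 6877002 arrays. Its log2 change was -0.47 ± 0.07, and those of Rasgrp1, an activator of RAS, and Prkcd, protein kinase C delta, were -0.52 ± 0.07 and -0.29 ± 0.07. Hcar2, the receptor for niacin and ketone bodies, fell (-0.44 ± 0.09), as did Ebi3, a subunit of IL-27 (-0.31 ± 0.07), Sdc4, a heparan sulfate proteoglycan (-0.38 ± 0.07), Tfrc, the transferrin receptor (-0.35 ± 0.08), Mt1, a metallothionein (-0.28 ± 0.07), and Ppargc1b, a co-activator of mitochondrial genes (-0.57 ± 0.14), all as log2 changes. Hcar2 (-0.37), Ebi3 (-0.24), Tfrc (-0.24), Mt1 (-0.22) and Ppargc1b (-0.44) did not pass with slide as a block.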
